A study of Mus musculus with 62 samples.

Results

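The libraries described here are the white adipose tissue samples of the late weeks of a mouse melanoma series: 12 from animals that received melanoma cells causing cachexia (CAC) and 10 from animals that received melanoma cells that do not (NCAC), 22 of the 62 libraries in all. They were chosen by the week and arm in their names, with no measured value used, and the 2 late weeks were read together for the changes they share. The CAC libraries are 5 from 6 weeks and 7 from 8 weeks after injection, and the NCAC libraries are 5 from each of these weeks. A further 10 mock-injected libraries of the same weeks, 5 each, give the level in fat of animals without tumour cells. All animals were female and 2 months old. The series record gives them as NCI Ath/nude mice, which lack a thymus and so most T cells, whereas the strain tag of each sample reads C57BL6/J, and this conflict could not be settled here. The arm was read from the sample descriptions, since the treatment tag names cachectic melanoma cells for every sample, mock included. Which melanoma lines were used, whether each is 1 clone, and which fat depot was taken are not stated in the labels. The extraction text of the labels also speaks of LLC cells and a 3-week time, which match no library name here, and this was not settled either.

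Cachexia is the loss of fat and muscle that accompanies some tumours. White fat stores triglyceride in adipocytes and releases fatty acids from it by lipolysis, and it secretes hormones such as leptin in proportion to its stores. Cytokines of the interleukin-6 family, acting through the transcription factor STAT3, and glucocorticoids, acting through their nuclear receptor, drive the acute phase response, best known in liver, in which plasma proteins such as haptoglobin are made in excess.

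Values are TPM, which divide out transcript length and sum to 1000000 in each library, so the read depth is unknown and levels of different genes can be compared. Differences are CAC minus NCAC on the log2(TPM + 1) scale, which understates changes of low genes, from 1 limma model with week as a factor and 1 arm effect common to both weeks. A gene is called to have risen or fallen at a Benjamini-Hochberg adjusted p under 0.05 over 14577 tested genes. The labels call the replicates biological, and the p-values measure the spread between these libraries. In bulk tissue, fewer cells of a type and less RNA per cell cannot be told apart.

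The 22 libraries held 12168 to 13989 genes at 1 TPM or more, and the 7 adipocyte markers were present in each, with summed levels of 53785 to 89353 TPM in CAC, 51139 to 83291 TPM in NCAC and 31437 to 78760 TPM in mock fat. Mitochondrially encoded transcripts took 21.1% to 34.4% of the TPM in CAC libraries and 26.5% to 42.4% in NCAC libraries. Markers of the bladder lining (urothelium) were above 100 TPM in sum in 8 of 12 CAC libraries, 0 of 10 NCAC libraries and 2 of 10 mock libraries. Libraries also stood apart within groups. Replicate 3 of the 8-week CAC group had the lowest Itih4, Hp, Serpina3n and Lcn2 of all 12 CAC libraries. Replicate 3 of the 8-week NCAC group had low leptin and collagen and high Ucp1. Leaving these out one at a time gave 2729 and 2922 called genes, where all 22 libraries gave 2184.

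CAC fat differed from NCAC fat at 2184 of 14577 tested genes (15% of them), with 1253 higher (8.6%) and 931 lower (6.39%) in CAC. By at least 2-fold, 280 were higher and 177 lower. The split depends on the scaling: with the 37 mitochondrially encoded genes left out of the TPM total, 950 were higher and 2164 lower. The median over all tested genes was 0.04 on the log2 scale, and it was -0.06 under that scaling. Each of the 2184 called genes had the same sign at 6 and at 8 weeks, which a common arm effect favours, and 195 higher and 112 lower genes differed by at least 2-fold in each week taken alone. Over all tested genes the 6-week and 8-week differences, which share no library, had a Pearson r of 0.74 as a description. A test of the difference between the weeks (8 minus 6) called 0 genes in limma, with 482 at an unadjusted p under 0.05. Its standard errors are wider than those of the common effect, with a median of 0.28 against 0.14 on the log2 scale.

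**Figure D1:**
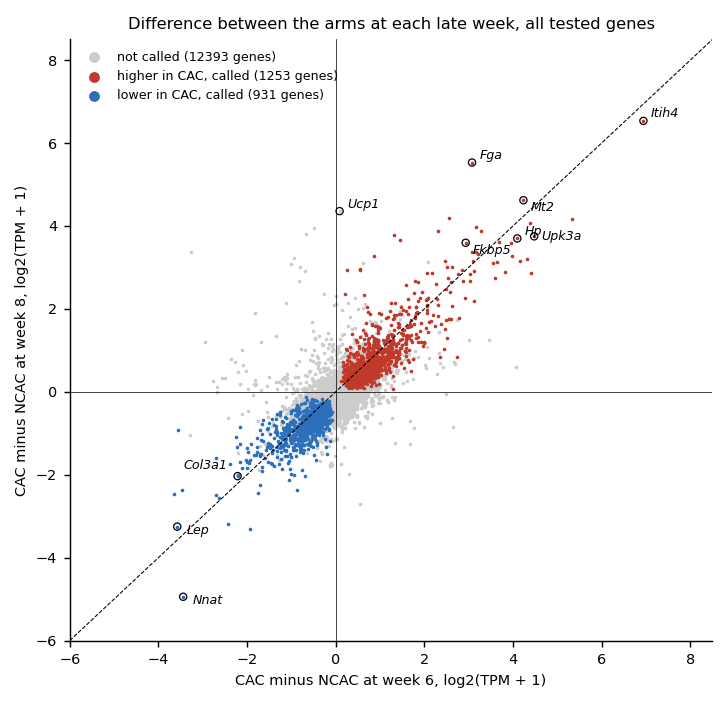
Each point is 1 of the 14577 tested genes, placed by its CAC minus NCAC difference in log2(TPM + 1) at week 6 (x axis) and week 8 (y axis). Red points are the 1253 genes called higher in CAC, blue points the 931 called lower, grey points the rest, and the dashed line marks equal differences. Called genes follow the diagonal, with Itih4 at 6.94 and 6.54, while Ucp1 was at 0.09 at week 6 and 4.36 at week 8.

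Of the 26 pathway lists, the acute phase plasma proteins had the highest share of members that rose: 13 of 17 tested members rose and 0 fell, with a median difference of 1.95 against 0.04 over all genes. This and each list count below is to be read beside the 8.6% of all tested genes that rose and the 6.39% that fell. Itih4, a secreted plasma protein of the ITIH family (chromosome 14, 30886476 to 30902353 on GRCm38), was at 151 to 1336 TPM (median 688) in CAC fat, 2.51 to 22.9 TPM (median 3.67) in NCAC fat and 3.13 to 10.8 TPM (median 6.19) in mock fat. Every CAC library lay above every NCAC library, by a difference of 6.72 (SE 0.34, limma adjusted p = 2.42e-11). Hp, haptoglobin, the plasma protein that binds free haemoglobin (chromosome 8, 109575128 to 109579172), was at 582 to 20472 TPM (median 9384) in CAC fat, 291 to 1119.7 TPM (median 409) in NCAC fat and 168 to 896 TPM (median 485) in mock fat, a rise of 3.88 (SE 0.44, limma adjusted p = 8.93e-06). Of the 12 CAC libraries 11 lay above every NCAC library for Hp, and replicate 3 of 8 weeks fell inside the NCAC range. The haptoglobin message thus averaged 9142 ± 5073 TPM in CAC fat against 545 ± 287 TPM in NCAC fat (SD, n = 12 and 10), while Adipoq, the gene of the adipocyte hormone adiponectin, averaged 3283 ± 442 TPM and 4426 ± 1198 TPM in these arms.

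The rise extended to other secreted proteins. Lcn2, lipocalin 2, which binds bacterial iron carriers, was at 3.20 to 129 TPM (median 64.9) in CAC fat, against 0.454 to 92.6 TPM (median 1.74) in NCAC fat, a rise of 3.60 (SE 0.64, limma adjusted p = 9.82e-04). The NCAC arm reached CAC levels in 1 library, replicate 1 of 8 weeks, and 1 mock library held 405 TPM. Fga, the alpha chain of fibrinogen, was at 0.535 to 1245 TPM (median 21.6) in CAC fat and 0 to 0.744 TPM (median 0.0695) in NCAC fat, a rise of 4.40 (SE 0.96, limma adjusted p = 0.00442) that was very uneven among CAC animals. The partner chains did not follow: Fgg was not called (1.95, limma adjusted p = 0.0946), and Fgb was too low to test, listed at 0 in 10 of 12 CAC libraries. Among members named after their values were seen, Serpina3n, a secreted protease inhibitor, rose by 3.31 (SE 0.38), Lrg1 by 3.01 (SE 0.42), the serum amyloids Saa2 and Saa1 by 3.13 and 2.80, ceruloplasmin (Cp) by 0.87 and the complement protein C3 by 1.08. C3 was high in every library, at 2414 to 3998 TPM (median 3223) in CAC and 909 to 2362 TPM (median 1386) in NCAC fat with no overlap. Saa3, the serum amyloid made mainly outside the liver, was not called, at 9.59 to 281 TPM (median 63.7) in CAC and 11.6 to 146 TPM (median 35.5) in NCAC fat (difference 0.66, SE 0.60, limma adjusted p = 0.478), nor were Orm1 (-0.14) and haemopexin, Hpx (0.26).

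Of the 12 largest rises, Serpina3m (3.64, SE 0.37) belongs to the same protease inhibitor cluster, and Apod, a secreted lipid carrier of the lipocalin family, rose by 4.21 (SE 0.45). Apod was at 11.8 to 376 TPM (median 138) in CAC fat, against 2.20 to 18.6 TPM (median 5.02) in NCAC fat. Serpina3k was at 44.9 to 605 TPM (median 124) and 2.00 to 32.9 TPM (median 11.0) in these arms, with no overlap, and rose by 3.60 (SE 0.46, limma adjusted p = 3.94e-05). The Serpina3 genes, Saa1 and Saa2, Mt1 and Mt2, and C4a and C4b are close copies, so their individual values are uncertain. Of 4 tested hepatocyte markers 0 rose and 1 fell in limma. The 6 hepatocyte markers summed to 2.02 to 7.77 TPM in CAC fat, against 5.63 to 40.7 TPM in NCAC fat, with Cyp3a11 at 0 in every CAC library. Alb, the serum albumin gene and the leading liver transcript, was lower in every CAC library than in any NCAC library, at 0.122 to 4.04 TPM (median 1.77) against 4.05 to 34.2 TPM (median 13.1), and fell by 2.58 (SE 0.31, limma adjusted p = 1.64e-05). The calls of the acute phase list held at 13 without any single library, and 5 of the 13 (Itih4, Saa2, Serpina3n, Saa1 and Hp) were still called with the libraries above 100 TPM in urothelial markers left out. Leaving those out keeps 4 CAC libraries, 2 of each week, and all 10 NCAC libraries. Replicate 3 of the 8-week CAC group, at 7.82 TPM in urothelial markers, is among the 4 kept. That library had the lowest Itih4, Hp, Serpina3n and Lcn2 of the CAC arm, so calls lost in this setting cannot be credited to urothelial tissue alone.

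**Figure D2:**
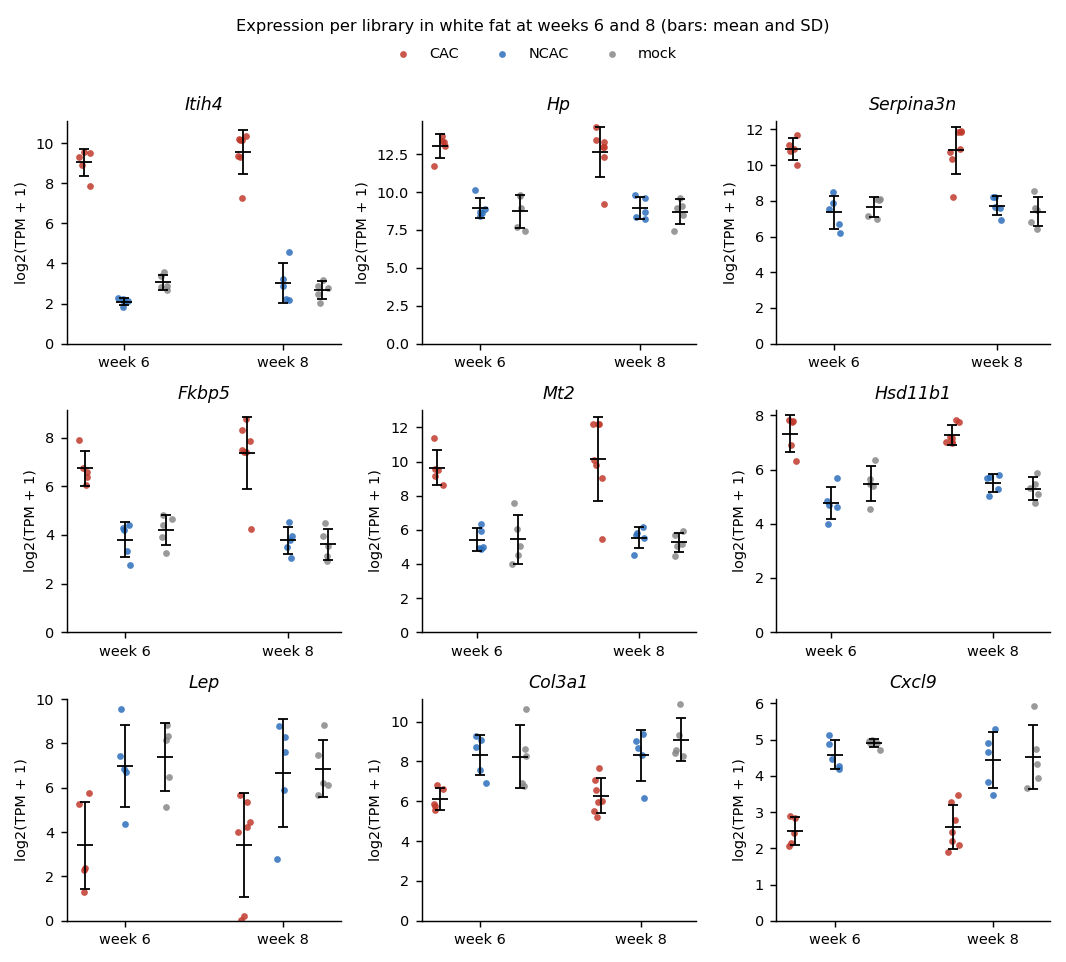
Expression of 9 genes as log2(TPM + 1), 1 point per library, with the mean and SD of each group as bars, at weeks 6 and 8 for CAC (red), NCAC (blue) and mock (grey) fat. The 6 upper genes were higher and the 3 lower genes (Lep, Col3a1, Cxcl9) lower in CAC than in NCAC fat, and for Itih4, Hsd11b1 and Cxcl9 the CAC and NCAC libraries did not overlap.

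Receptors, transducers and targets of the interleukin-6 family moved in part: 6 of 14 tested members rose and 1 fell, with a median of 0.54. The called share was 50%, beside 15% of all tested genes. Osmr, the receptor chain for oncostatin M, was at 10.5 to 44.6 TPM (median 24.5) in CAC fat, 4.63 to 11.9 TPM (median 6.29) in NCAC fat and 3.88 to 24.1 TPM (median 9.32) in mock fat, a rise of 1.69 (SE 0.21, limma adjusted p = 2.26e-05). Socs3, a STAT3 target that restrains the same receptors, was at 12.3 to 67.6 TPM (median 35.5) in CAC fat, against 3.47 to 14.5 TPM (median 7.81) in NCAC fat, and rose by 1.93 (SE 0.27, limma adjusted p = 1.20e-04). With the exception of replicate 3 of 8 weeks, the CAC libraries exceeded the whole NCAC arm for Osmr and for Socs3. Stat3 itself rose by 1.34 (SE 0.20), Bcl3 by 1.66, Cebpd by 1.46 and Pim1 by 1.07; these 4 members were named after their values were seen. The shared receptor chain Il6st (0.41, limma adjusted p = 0.123) and the kinase Jak1 (-0.03, limma adjusted p = 0.909) were not called. Of the ligands, Il6, Osm and Il11 were too low to test, and Lif, leukaemia inhibitory factor, fell by 1.06 (SE 0.20, limma adjusted p = 0.00149), at 0.0130 to 0.916 TPM (median 0.108) in CAC and 0.170 to 4.22 TPM (median 1.21) in NCAC fat. Lif was highest among the CAC libraries in replicate 3 of 8 weeks. With the libraries above 100 TPM in urothelial markers left out, Osmr and Socs3 were still called, at 1.47 and 1.99.

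Itih4, of the acute phase list, and Socs3, of the interleukin-6 family list, are shown with their promoters because both rose in CAC fat and each holds the palindrome that STAT factors are known to bind, TTCNNNGAA. This palindrome is contained in 8.3% of 32851 RefSeq mouse promoters of the same length. The 300 bases run 5′ to 3′ from 250 before to 50 after the annotated start (RefSeq, GRCm38.p6), with the match in capitals; it begins 51 bases before the start of Itih4 (chr14:30886226-30886525, plus strand) and 154 before that of Socs3 (chr11:117969317-117969616, minus strand). GENCODE M21 places Socs3 at 117966079 to 117970047, so its start there lies upstream of this window. The Socs3 distance therefore holds for the RefSeq start only. The palindrome reads the same on both strands. Both promoters were picked for their match, which describes the letters and does not show binding.
Itih4: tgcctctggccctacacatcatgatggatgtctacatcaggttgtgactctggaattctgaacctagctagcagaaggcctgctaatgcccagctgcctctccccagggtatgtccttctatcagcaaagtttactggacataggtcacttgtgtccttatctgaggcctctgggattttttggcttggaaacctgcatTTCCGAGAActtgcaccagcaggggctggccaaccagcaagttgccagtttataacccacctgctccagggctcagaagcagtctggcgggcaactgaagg
Socs3: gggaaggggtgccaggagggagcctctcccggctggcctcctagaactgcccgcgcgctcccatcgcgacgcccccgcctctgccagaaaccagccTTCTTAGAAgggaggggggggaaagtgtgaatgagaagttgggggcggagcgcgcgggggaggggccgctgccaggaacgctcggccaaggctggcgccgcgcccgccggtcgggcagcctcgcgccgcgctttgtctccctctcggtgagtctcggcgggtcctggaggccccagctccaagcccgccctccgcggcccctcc

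Several glucocorticoid-induced genes rose, and the receptor message fell: 6 of 16 members of the glucocorticoid and fasting list rose and 2 fell, with a median of 0.77. Hsd11b1, the enzyme that regenerates active glucocorticoid inside cells (chromosome 1, 193221634 to 193264075), was at 78.8 to 227 TPM (median 144) in CAC fat, 15.1 to 54.8 TPM (median 34.8) in NCAC fat and 22.1 to 81.4 TPM (median 42.1) in mock fat. The CAC and NCAC libraries did not overlap, and the rise was 2.13 (SE 0.22, limma adjusted p = 2.37e-06). Fkbp5, a classical target of the glucocorticoid receptor that also binds the receptor complex (chromosome 17, 28399094 to 28517527), was at 17.9 to 442 TPM (median 172) in CAC fat, 5.85 to 22.2 TPM (median 13.7) in NCAC fat and 6.64 to 26.9 TPM (median 14.3) in mock fat, a rise of 3.29 (SE 0.40, limma adjusted p = 2.10e-05). Only replicate 3 of the 8-week CAC group, at 17.9 TPM, lay within the NCAC range. Ddit4 (1.87), Cdkn1a (1.62), Tsc22d3, which encodes GILZ (0.98), and Per1 (0.87) also rose, and were named after their values were seen. The receptor gene Nr3c1 fell by 0.55 (SE 0.12, limma adjusted p = 0.00368), at 34.7 to 63.7 TPM (median 44.4) in CAC and 47.1 to 81.0 TPM (median 68.1) in NCAC fat. Pdk4, a fasting-induced kinase that spares glucose, was at 70.1 to 391 TPM (median 138) in CAC and 39.7 to 277 TPM (median 100.5) in NCAC fat and was not called (difference 0.84, SE 0.32, limma adjusted p = 0.0767). Without the libraries above 100 TPM in urothelial markers 2 members of the list were called, Fkbp5 at 2.41 and Hsd11b1 at 2.29.

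Metallothioneins, small proteins that bind zinc and copper, rose strongly but unevenly, with 4 of 6 tested members of the zinc list rising and 0 falling. Mt2 was at 42.8 to 4805 TPM (median 837) in CAC fat, 21.7 to 80.8 TPM (median 47.2) in NCAC fat and 15.0 to 192 TPM (median 34.0) in mock fat, a rise of 4.44 (SE 0.61, limma adjusted p = 9.30e-05). Mt1 was at 131 to 6080.3 TPM (median 1352) in CAC and 104 to 301 TPM (median 159) in NCAC fat, a rise of 3.28 (SE 0.47, limma adjusted p = 1.52e-04). For each, 11 of 12 CAC libraries lay above every NCAC library, and replicate 3 of 8 weeks was the exception. The zinc importer Slc39a14, named after its values were seen, rose by 2.49 (SE 0.54) and ranged from 5.39 to 286 TPM across CAC fat. Without the libraries above 100 TPM in urothelial markers 0 members of the list were called in limma, Mt2 at 3.61 (adjusted p = 0.0919) and Mt1 at 2.59 (adjusted p = 0.115).

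Mt1, of the zinc list, and Serpina3n, of the acute phase list, are printed because both rose in CAC fat and each holds a match to the glucocorticoid response element. It was searched as GNACA, then any 3 bases, then TGTNC, which 0.475% of the 32851 promoters contain. The letters run as before (RefSeq, GRCm38.p6), with the match in capitals; it begins 94 bases before the start of Mt1 (chr8:94178839-94179138, plus strand) and 78 before that of Serpina3n (chr12:104406458-104406757, plus strand). The pattern is the same on both strands. Both promoters were picked for their match, which is a description of the letters.
Mt1: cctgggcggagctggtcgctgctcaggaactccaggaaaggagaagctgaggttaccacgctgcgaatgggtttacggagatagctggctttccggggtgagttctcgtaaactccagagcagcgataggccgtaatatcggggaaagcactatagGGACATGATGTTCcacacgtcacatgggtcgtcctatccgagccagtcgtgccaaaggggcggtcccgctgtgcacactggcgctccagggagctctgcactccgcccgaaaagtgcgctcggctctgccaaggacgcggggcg
Serpina3n: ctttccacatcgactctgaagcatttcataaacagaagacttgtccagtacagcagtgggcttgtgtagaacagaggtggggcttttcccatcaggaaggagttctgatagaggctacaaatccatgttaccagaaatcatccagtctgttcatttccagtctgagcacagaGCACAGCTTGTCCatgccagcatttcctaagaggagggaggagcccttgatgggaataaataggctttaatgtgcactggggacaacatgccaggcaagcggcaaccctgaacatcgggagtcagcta

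Leptin and other genes known to follow the size of fat stores fell. Lep, leptin, the hormone that reports fat mass to the brain (chromosome 6, 29060220 to 29073877), was at 0.0212 to 53.2 TPM (median 16.2) in CAC fat, 5.82 to 749 TPM (median 143) in NCAC fat and 34.5 to 459.7 TPM (median 132) in mock fat. The arms overlapped, with NCAC replicate 3 of 8 weeks at 5.82 TPM and NCAC replicate 1 of 6 weeks at 19.5 TPM, and the fall was 3.40 (SE 0.85, limma adjusted p = 0.0104). Nnat, neuronatin, a small membrane protein of the endoplasmic reticulum, was at 0.520 to 154 TPM (median 1.60) in CAC and 1.28 to 956 TPM (median 131) in NCAC fat, a fall of 4.25 (SE 0.98, limma adjusted p = 0.00629). Sncg, gamma-synuclein, fell by 2.84 (SE 0.63) and Oxtr, the oxytocin receptor, by 3.02 (SE 0.61). These are 3 of the 6 members of the fat expansion list, whose other members Mest (-0.77), Sfrp5 (-0.11) and Bmp3 (0.44) were not called. Rbp4, the retinol carrier, fell by 1.49 (SE 0.31, limma adjusted p = 0.00367), and Adipoq by 0.41 (SE 0.13, limma adjusted p = 0.0389). Adipoq was at 2570.3 to 3751 TPM (median 3413) in CAC and 2677 to 6585 TPM (median 4043) in NCAC fat, and its call was lost without any 1 of 9 of the 22 libraries. A pair of adipokines went the other way, the protease adipsin (Cfd, 0.43, limma adjusted p = 0.039) and Nampt (0.73, limma adjusted p = 0.0237), and the adipsin call was lost without any 1 of 12 libraries and under both other scalings. The 9 adipogenic transcription factors, Pparg (0.24) and Cebpa (-0.32) among them, had 0 calls in limma, and 2 that fell under each of the other scalings.

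Of 17 lipolysis genes 2 rose and 5 fell, where 8.6% of all tested genes rose and 6.39% fell. Pnpla2, adipose triglyceride lipase, which starts triglyceride breakdown, was at 1709.7 to 3035 TPM (median 2719) in CAC fat, 1372 to 2518 TPM (median 1565) in NCAC fat and 900.0 to 2203 TPM (median 1788) in mock fat, a rise of 0.59 (SE 0.12, limma adjusted p = 0.00239). Its co-activator Abhd5 was at 173 to 352 TPM (median 264) in CAC and 112 to 233 TPM (median 156) in NCAC fat and rose by 0.66 (SE 0.13, limma adjusted p = 0.00185). In each case 8 of 12 CAC libraries lay above every NCAC library. The lipid droplet coat Plin1, which holds the lipase system in check, fell by 0.86 (SE 0.21, limma adjusted p = 0.00878), at 163 to 647 TPM (median 474) in CAC and 537 to 995 TPM (median 775) in NCAC fat. Adrb3, the beta-3 adrenergic receptor that triggers lipolysis, fell by 1.15 (SE 0.31, limma adjusted p = 0.0146). Npr3, the clearance receptor for natriuretic peptides, fell by 2.68 (SE 0.51, limma adjusted p = 0.0017), at 5.02 to 48.2 TPM (median 11.2) in CAC and 14.8 to 420.4 TPM (median 81.1) in NCAC fat. The glycerol channel Aqp7 (-0.91) and monoglyceride lipase Mgll (-0.79), named after their values were seen, fell as well. Lipe, hormone-sensitive lipase, did not pass the test, at 391 to 1103 TPM (median 635) and 458 to 855 TPM (median 774) (difference -0.12, SE 0.16, limma adjusted p = 0.65), nor did Azgp1, zinc-alpha2-glycoprotein, a secreted protein linked to fat loss in cachexia, at 1.57 to 30.0 TPM (median 7.42) and 0.148 to 17.9 TPM (median 2.19) in CAC and NCAC fat (difference 1.42, SE 0.50, limma adjusted p = 0.0566). Azgp1 stayed uncalled in 7 of 11 other settings and in 17 of 22 fits that each left out 1 library. In the rest it was called higher.

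Fat synthesis and uptake genes were mixed. Of 15 fatty acid synthesis genes 2 rose and 0 fell, 13.3% beside the 8.6% called higher over all tested genes. The 2 were Mlxipl, which encodes the carbohydrate-responsive factor ChREBP (1.00, SE 0.20), and Acacb, acetyl-CoA carboxylase 2, whose product restrains mitochondrial fatty acid entry (1.60, SE 0.33). The synthesis enzymes did not pass: Fasn was at 1079.7 to 6492 TPM (median 3827) in CAC and 1061 to 6606 TPM (median 2460.2) in NCAC fat (difference 0.41, limma adjusted p = 0.424), Acly differed by 0.60 (limma adjusted p = 0.458) and Scd1 by 0.52 (limma adjusted p = 0.268). Of 14 uptake and triglyceride synthesis genes 3 rose (Lpin1 at 0.97, Slc27a1 at 0.68 and Gpam at 0.63) and 3 fell, but 1 rose under each of the other scalings. The Slc27a1 call (limma adjusted p = 0.0483) was lost under both and kept without only 5 of the 22 libraries taken out in turn. Pck1, which makes glycerol phosphate for re-esterification, was at 206 to 1686 TPM (median 611) in CAC and 705 to 2192 TPM (median 1279) in NCAC fat and fell by 1.09 (SE 0.31, limma adjusted p = 0.0215). The fatty acid transporter Cd36 fell by 0.45 (SE 0.13) and lipoprotein lipase, Lpl, by 0.39 (SE 0.12). Angptl4, an inhibitor of that lipase counted in the glucocorticoid list, fell by 0.97 (SE 0.28). In the cholesterol pathway 1 of 16 genes rose, 6.25% beside the 8.6% called higher over all tested genes. It was Cyp51, lanosterol demethylase, at 34.3 to 223 TPM (median 145) in CAC and 10.4 to 39.0 TPM (median 26.5) in NCAC fat (difference 2.06, SE 0.31, limma adjusted p = 2.50e-04), while Sqle (0.69) was not called. Gpam, Lpl and Sqle were named after their values were seen. Without the libraries above 100 TPM in urothelial markers 0 genes of the lipolysis, synthesis, uptake, cholesterol, adipokine and fat expansion lists were called in limma.

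**Figure D3:**
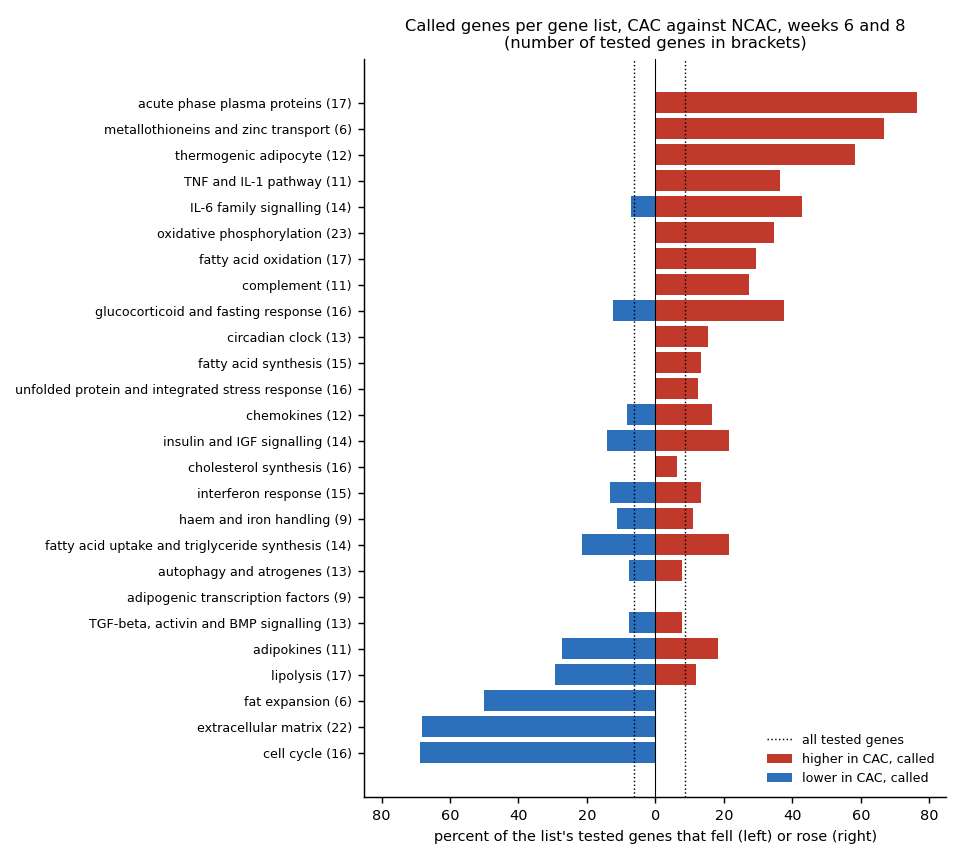
For each of the 26 pathway lists, the percent of its tested genes that limma called higher (red, right) or lower (blue, left) in CAC than in NCAC fat over weeks 6 and 8, with the number of tested genes in brackets and dotted lines at the shares over all tested genes, 8.6% higher and 6.39% lower. Acute phase proteins (13 of 17 rose), the cell cycle list (11 of 16 fell) and the matrix list (15 of 22 fell) lie farthest from the dotted lines in their directions among these 26.

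Thermogenic genes, which mark heat-producing adipocytes, were higher in CAC fat, and the size differed between the weeks as a description: 7 of 12 rose and 0 fell, with medians of 0.29 at 6 weeks and 2.13 at 8 weeks. Elovl3, a fatty acid elongase of brown fat, was at 99.4 to 639.6 TPM (median 225) in CAC and 3.14 to 268 TPM (median 36.1) in NCAC fat, a rise of 2.64 (SE 0.61, limma adjusted p = 0.00618). Cidea, a lipid droplet protein of thermogenic fat, was at 183 to 813 TPM (median 402) and 11.1 to 545 TPM (median 102) in these arms and rose by 2.16 (SE 0.49, limma adjusted p = 0.00595). Ucp1, the uncoupling protein itself, was not called, at 94.1 to 1597 TPM (median 375) in CAC, 0.577 to 1388 TPM (median 198) in NCAC and 0.174 to 2046 TPM (median 113) in mock fat (difference 2.39, SE 0.83, limma adjusted p = 0.0567). At 8 weeks the NCAC libraries fell into 4 at 0.577 to 16.99 TPM of Ucp1 and 1, replicate 3, at 475 TPM, against 94.1 to 1029 TPM in the CAC libraries. At 6 weeks the arms overlapped throughout, at 125 to 1597 TPM in CAC and 184 to 1388 TPM in NCAC fat. Mock fat spanned the whole range. The count was 11 without NCAC replicate 3 of 8 weeks, 3 without NCAC replicate 2, and 4 without NCAC replicate 4, NCAC replicate 5 or CAC replicate 6 of that week.

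Small rises of mitochondrial genes depended on the scaling. With the TPM as deposited, of 23 nuclear-encoded respiratory chain genes 8 rose and 0 fell, among them Ndufv1 of complex I (0.43, SE 0.09), but 2 rose and 1 fell with the mitochondrially encoded genes left out, and 1 rose after the libraries were rescaled by their median ratio. Of 17 fatty acid oxidation genes 5 rose and 0 fell, led by Cpt1b, the muscle and brown fat form of carnitine palmitoyltransferase (1.84, SE 0.47), and Acadvl (0.59, SE 0.16), against 1 that rose and 1 that fell under each of those scalings. Cpt1b was at 25.2 to 116 TPM (median 66.3) in CAC and 2.80 to 118 TPM (median 22.3) in NCAC fat, so the ranges overlapped. Markers of skeletal muscle, where Cpt1b is also made, summed to 4.90 to 906 TPM (median 198) in CAC fat. In NCAC fat they summed to 9.83 to 446 TPM (median 45.4), and their part in this was not tested. All 8 muscle markers had a positive difference, with a median of 1.45. Of the 8, 0 were called in limma, and 6 rose with a replicate block. Without the libraries above 100 TPM in urothelial markers 0 genes of the thermogenic, oxidation and respiratory chain lists were called in limma.

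Matrix genes fell as a group: 15 of 22 tested members were lower in CAC fat and 0 higher, with a median of -1.24. Col3a1, a fibrillar collagen chain (chromosome 1, 45311538 to 45349706), was at 35.5 to 199.7 TPM (median 61.6) in CAC fat, 70.2 to 670.2 TPM (median 414) in NCAC fat and 108 to 1874 TPM (median 358) in mock fat, a fall of 2.12 (SE 0.37, limma adjusted p = 8.84e-04). Col1a1, a chain of the abundant type I collagen, was at 10.5 to 62.03 TPM (median 28.5) in CAC and 12.2 to 464 TPM (median 194) in NCAC fat, a fall of 2.03 (SE 0.50, limma adjusted p = 0.00926). The ranges overlapped for both, and NCAC replicate 3 of 8 weeks was the lowest NCAC library. Cilp, a cartilage matrix protein, fell by 2.10 (SE 0.41). Of members named after their values were seen, Col15a1 fell by 2.00, Col6a3 by 1.83, the microfibril protein Fbn1 by 1.78 and periostin, Postn, by 1.05. The basement membrane chains Col4a1 (-0.08, limma adjusted p = 0.833) and Col4a2 (-0.06, limma adjusted p = 0.877) were not called. Fibroblast and progenitor markers fell in 4 of 10 cases (Dpt by 1.59, Mfap5 by 1.36, Lum by 1.16 and Dpp4 by 1.03, of which Lum and Dpp4 were named after their values were seen), while Pdgfra (-0.31, limma adjusted p = 0.428) and Dcn (-0.13, limma adjusted p = 0.777) were not called. The 10 markers summed to 834 to 2904 TPM in CAC and 1046 to 4562 TPM in NCAC fat, and their part in the fall of the matrix genes was not tested.

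Proliferation genes and markers of the serous lining fell beside them. Of 16 cell cycle genes 11 fell and 0 rose. Mki67, the Ki-67 proliferation antigen, was at 0.0798 to 1.95 TPM (median 0.287) in CAC, 0.159 to 5.67 TPM (median 3.28) in NCAC and 0.574 to 19.4 TPM (median 2.32) in mock fat, a fall of 1.27 (SE 0.27, limma adjusted p = 0.00402), and Cdk1, the mitotic kinase, fell by 0.93 (SE 0.22). Replicate 3 was the highest of the 8-week CAC libraries and replicate 3 the lowest of the 8-week NCAC libraries for Mki67. Fitted together with the other 40 libraries, 2 of the 16 fell. Of 5 mesothelial markers 3 fell, among them Msln, mesothelin, by 1.83 (SE 0.43) and Upk3b by 1.18 (SE 0.33). Without the libraries above 100 TPM in urothelial markers 0 members of the matrix, cell cycle, fibroblast and mesothelial lists were called in limma, with Col3a1 at -1.67 (adjusted p = 0.3), Col1a1 at -1.66 (adjusted p = 0.476) and Mki67 at -1.07 (adjusted p = 0.414).

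Immune genes did not move as 1 block. Ccl8, a chemokine for monocytes and T cells, was at 82.1 to 774 TPM (median 247) in CAC, 2.91 to 98.4 TPM (median 20.7) in NCAC and 2.70 to 212 TPM (median 29.5) in mock fat, a rise of 3.61 (SE 0.50, limma adjusted p = 9.50e-05). Cxcl13, a B cell chemokine, rose by 3.24 (SE 0.53, limma adjusted p = 5.02e-04). Cxcl9, an interferon-gamma-induced T cell chemokine (chromosome 5, 92321347 to 92328079), went the other way, at 2.74 to 10.04 TPM (median 4.41) in CAC, 10.1 to 38.4 TPM (median 22.7) in NCAC and 11.6 to 59.9 TPM (median 27.4) in mock fat. Every CAC library lay below every NCAC library, a fall of 1.97 (SE 0.23, limma adjusted p = 8.93e-06). The remaining members of the 12 tested chemokines were not called, Ccl2 (-0.62) and Cxcl10 (-0.28) among them. In the interferon list 2 of 15 rose (Psmb8, at 0.73, among them) and 2 fell (the guanylate-binding proteins Gbp10 by 1.63 and Gbp3 by 0.43). That is 26.7% called, beside 15% of all tested genes. Of 11 complement genes 3 rose and 0 fell: C4b, at 247 to 1568 TPM (median 952) in CAC and 55.1 to 330.4 TPM (median 115) in NCAC fat (2.92, SE 0.31), C7 (2.49, SE 0.32) and C6 (1.72, named after its values were seen), while C1qa (0.45) and Cfb (0.40) were not called.

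Of 11 TNF and interleukin-1 genes 4 rose, led by the decoy receptor Il1r2 (1.05, SE 0.24) and the TNF receptor Tnfrsf1a (0.71, SE 0.16). The others were the cytokine Il1b and the receptor Il1r1, both named after their values were seen. Tnf itself was not called, at 0.0346 to 0.956 TPM (median 0.374) in CAC and 0.188 to 0.959 TPM (median 0.416) in NCAC fat. Most macrophage markers were not called: Adgre1, which encodes F4/80, was at 4.90 to 28.1 TPM (median 15.6) in CAC and 6.83 to 32.4 TPM (median 16.7) in NCAC fat (difference -0.33, SE 0.30, limma adjusted p = 0.476). Of the 10 macrophage markers Cd14, a lipopolysaccharide co-receptor, rose by 1.11 (SE 0.22) and the lectin Cd209f fell by 1.31 (SE 0.39). The 10 summed to 206 to 1100.2 TPM in CAC and 263 to 1089 TPM in NCAC fat. Lyz1, a lysozyme, was below every NCAC library in every CAC library, at 1.38 to 7.83 TPM (median 3.94) against 11.2 to 54.1 TPM (median 27.6), a fall of 2.59 (SE 0.27, limma adjusted p = 3.51e-06). Rnase2a, a ribonuclease of the eosinophil family, was also without overlap, at 0.950 to 4.78 TPM (median 2.06) in CAC and 7.73 to 125 TPM (median 17.8) in NCAC fat, and fell by 2.87 (SE 0.40, limma adjusted p = 1.00e-04). Neutrophil genes gave 2 rises of 5 (S100a9 at 0.89 and Csf3r at 0.82) and 1 fall (Mmp9 by 0.75), and the S100a9 call was kept without only 5 of the 22 libraries taken out in turn. The T, B and NK cell lists had 0 calls in limma among 10 tested members, although 3 B cell and 2 NK cell markers fell under each of the other scalings. With the libraries above 100 TPM in urothelial markers left out, Ccl8 (3.94), Cxcl9 (-1.68), C4b (2.61) and Lyz1 (-2.73) were still called.

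The other lists are to be read beside the 15% of all tested genes that were called. Called members made up 37.5% of the endothelial, 35.7% of the insulin and 22.2% of the haem and iron list. The share was 15.4% for each of the TGF-beta, autophagy and clock lists and 12.5% for the unfolded protein list. Insulin and growth factor signalling had 3 rises, Igfbp3 (1.54), Akt1 (0.69) and Insr (0.65), and 2 falls among 14 genes. Irs1, the insulin receptor substrate, was at 17.5 to 39.2 TPM (median 28.7) in CAC and 37.0 to 53.8 TPM (median 44.1) in NCAC fat and fell by 0.61 (SE 0.11, limma adjusted p = 0.00144), and the binding protein Igfbp5 fell by 1.52 (SE 0.25). Of 9 haem and iron genes ferritin heavy chain, Fth1, rose by 0.36 and the iron exporter Slc40a1 fell by 0.96. The TGF-beta list had 1 rise, Tgfbr2 (1.07), and 1 fall, Tgfb2 (by 0.85), among 13 genes. The unfolded protein list had 2 rises among 16, Xbp1 (0.57) and Dnajb9 (0.57). In the autophagy list of 13, Map1lc3b rose by 0.75 and its relative Map1lc3a fell by 0.50. Cry1 (0.95) and Per2 (0.85) rose among 13 clock genes, and Vwf (0.73), Flt1 (0.55) and Emcn (0.53) among 8 endothelial markers. Insr and Emcn were named after their values were seen. Dct, 1 of 2 tested melanocyte markers, rose by 0.56 (SE 0.17), and the 5 markers summed to 2.92 to 7.23 TPM in CAC, 1.25 to 14.3 TPM in NCAC and 1.45 to 3.79 TPM in mock fat, with Tyr at 0 in every CAC library. The Xbp1 call was kept without only 7 of the 22 libraries taken out in turn, and the Dct call was lost under both other scalings. Without the libraries above 100 TPM in urothelial markers 0 members of these lists were called in limma.

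Of the 12 largest rises, 5 were genes of stratified or bladder epithelium: Sprr1a (4.70), Upk3a (4.09), Ly6d (3.76), Psca (3.73) and Upk1a (3.61). Upk3a, a uroplakin of the bladder surface, was at 0 to 130.2 TPM (median 34.1) in CAC, 0 to 0.164 TPM (median 0) in NCAC and 0 to 33.6 TPM (median 0.0254) in mock fat. Of 7 urothelial markers 6 rose, and their sum was 5.87 to 703 TPM (median 146) in CAC, 6.48 to 36.0 TPM (median 14.2) in NCAC and 2.49 to 147 TPM (median 24.0) in mock fat. With the sum as a covariate 513 genes were called, and with the 8 CAC libraries above 100 TPM left out 61 were called, 53 higher and 8 lower, each of them also called with all libraries, with 1612 at an unadjusted p under 0.05. Those 61 include Itih4 (6.30, limma adjusted p = 7.39e-05), Hp (3.63, limma adjusted p = 0.0464), Hsd11b1 (2.29, limma adjusted p = 0.00644) and Apod (3.36, limma adjusted p = 0.0391). Without those libraries Sprr1a was at 0.98 and Upk3a at 0.89, and neither was called. With 4 CAC libraries left, replicate 3 of 8 weeks among them, a lost call does not show a lost change: Fga went to 1.34, whereas Mt2 was 3.61, Lep -2.15 and Nnat -3.26. The covariate fit keeps all 22 libraries, and there 10 acute phase and 4 interleukin-6 family members still rose. By contrast 2 glucocorticoid, 0 thermogenic and 0 fatty acid oxidation genes rose, and 7 matrix, 2 cell cycle and 1 lipolysis genes fell. Lep, Nnat, Col1a1 and Pnpla2 were not called in it. As the sum itself differed between the arms, that fit cannot separate the 2. The part of bladder tissue in the other results was not tested beyond these values.

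**Figure D4:**
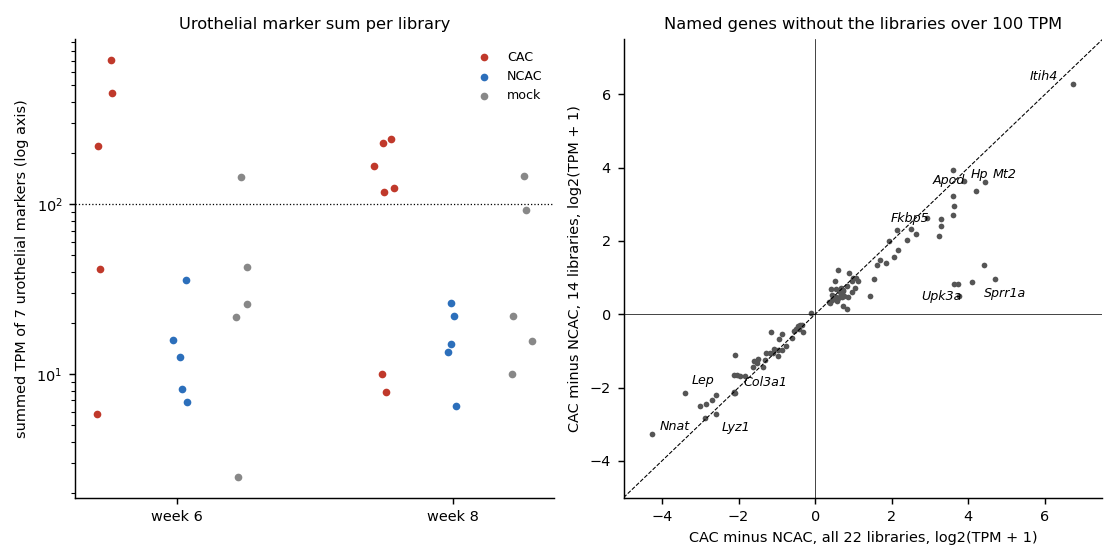
Left, summed TPM of the 7 urothelial markers per library on a log axis for CAC, NCAC and mock fat at weeks 6 and 8, with 100 TPM dotted. Right, the CAC minus NCAC difference of each named gene with all 22 libraries (x axis) and with the 8 CAC libraries above 100 TPM left out (y axis, 14 libraries). Most genes lie near the dashed line of equal values, Itih4 at 6.72 and 6.30, while Sprr1a and Upk3a drop to 0.98 and 0.89.

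The arms were compared in the same way before the late weeks. At weeks 2 and 4 this comparison (10 libraries an arm, none of them used above) called 0 genes in limma, with 915 at an unadjusted p under 0.05. A test of the late minus the early difference called 97 genes (0.665%), 91 (0.624%) with a higher and 6 (0.0412%) with a lower CAC effect late. Itih4 had differed by 2.60 early, so the change was 4.12 (limma adjusted p = 0.00366), while Fga (4.49, early -0.10), Fkbp5 (3.62, early -0.33), Serpina3k (3.56, early 0.04) and Cxcl13 (3.37, early -0.12) had early differences near 0 or below it. Hsd11b1, outside the naming rule here, gained 2.26 (limma adjusted p = 6.33e-04) from an early -0.13. Of the acute phase list 7 members were among the 97. The 5 named genes with a lower effect late were Cdsn, a skin adhesion protein (-5.27), Lyz1 (-2.09), Celsr2 (-1.27), Zfp703 (-1.02) and Irs1 (-0.79). As single libraries were left out, the Fga call was kept in 26 of 42 fits, that of Irs1 in 37, Celsr2 in 31 and Zfp703 in 19, and those of the other 6 named genes in all 42. For Cdsn the early difference was 3.18. Lep was not called in this test, with differences of -3.40 late and -2.22 early (limma adjusted p = 0.781), nor was Col3a1, at -2.12 and -0.60 (limma adjusted p = 0.315), nor Mt2, at 4.44 and 1.12 (limma adjusted p = 0.134). The 97 became 43 with the mitochondrially encoded genes left out (28 higher and 15 lower), 80 after median-ratio rescaling (66 higher and 14 lower), 0 without the libraries above 100 TPM in urothelial markers, and 41 to 199 as single libraries were left out.

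**Figure D5:**
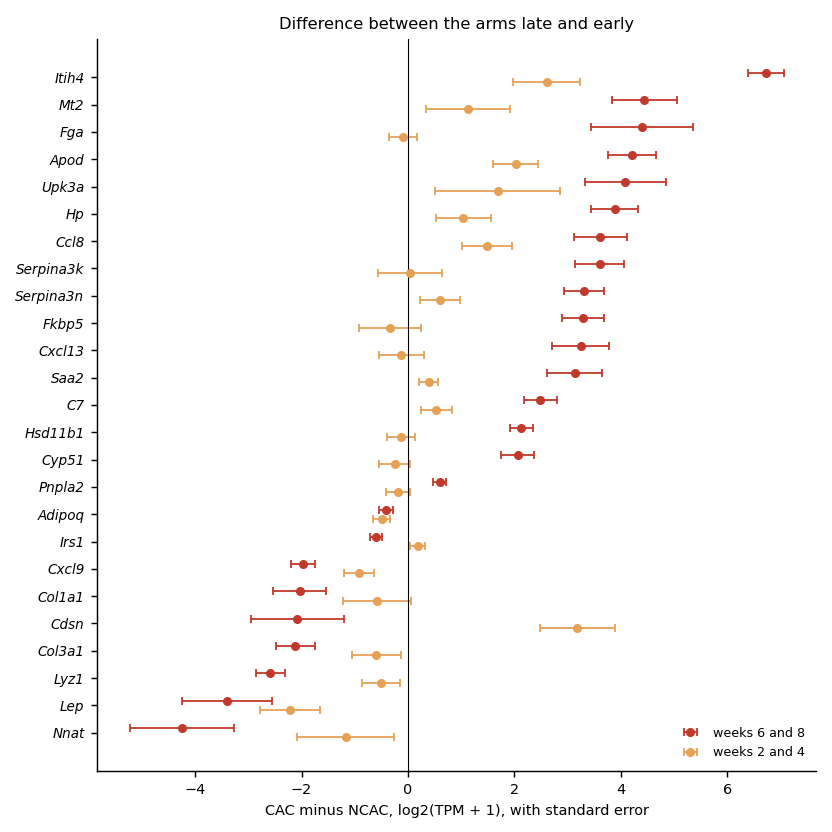
CAC minus NCAC difference in log2(TPM + 1) with its standard error for 25 genes at weeks 6 and 8 (red, upper point of each pair) and weeks 2 and 4 (orange, lower point). Itih4 stood at 6.72 late and 2.60 early, Fkbp5 at 3.29 and -0.33, Lep at -3.40 and -2.22, and Cdsn changed sign, at -2.08 and 3.18.

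Mock fat of the same weeks places both arms, with the limit that these comparisons share the CAC or the NCAC libraries with the one above. CAC against mock called 1690 genes (11.6%), 720 higher (4.94%) and 970 lower (6.65%). With the mitochondrially encoded genes left out, this split was 673 higher and 3383 lower. NCAC against mock called 0 in limma, with 308 at an unadjusted p under 0.05. Side by side, Itih4 stood at 6.47 in CAC and -0.31 in NCAC fat relative to mock, Hp at 4.11 and 0.23, Fkbp5 at 3.19 and -0.12, and Mt2 at 4.57 and 0.11. Among the lower genes Col3a1 was at -2.50 in CAC and -0.35 in NCAC fat, Lep at -3.69 and -0.30, and Cxcl9 at -2.16 and -0.20. Against mock, 13 of 17 acute phase genes rose and 15 of 22 matrix genes fell in CAC fat.

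Separation without any overlap was rarer than a call. In 30 genes (0.206%) all 12 CAC libraries lay above all 10 NCAC libraries, and in 9 (0.0617%) all lay below. Beside Itih4, Hsd11b1 and Serpina3k, the higher ones, named here for this reason and after their values were seen, include Fetub, a liver-type protease inhibitor, at 4.04 to 26.8 TPM (median 15.0) in CAC and 0.279 to 1.71 TPM (median 0.533) in NCAC fat, and Fgl1, a fibrinogen-like protein, at 0.322 to 59.8 TPM (median 9.49) and 0 to 0.180 TPM (median 0.0338). The apolipoprotein Apoc1 was at 790.3 to 1599.6 TPM (median 1172) in CAC and 220.2 to 578 TPM (median 408) in NCAC fat, and Scarb1, the receptor for high-density lipoprotein, at 87.8 to 154 TPM (median 128) and 34.9 to 83.8 TPM (median 62.6). Csf2rb, the shared receptor chain for several blood cell growth factors, rose by 1.30 (SE 0.17), and its near-copy Csf2rb2 by 2.05 (SE 0.23). Gyg, glycogenin, the primer of glycogen, was at 207 to 479 TPM (median 374) in CAC and 85.3 to 175 TPM (median 117) in NCAC fat, and Isyna1, the enzyme that makes inositol phosphate from glucose phosphate, rose by 1.77 (SE 0.21). Mmd2 (by 2.13) and Prr32 (by 2.12) were among the 12 largest falls, with overlap. The 9 lower genes include Rnase2a, Lyz1, Alb and Cxcl9 above, the Notch target Heyl (by 1.21) and nestin, Nes (by 0.86).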

How the data were processed

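RNA was extracted with Trizol and stranded TruSeq mRNA libraries were sequenced on a NovaSeq, per the labels' protocols. The authors deposited 1 table of TPM per gene symbol (47643 symbols), on build mm10 per the submitters' processing notes, and each library sums to 1000000. The sources used here do not give the aligner, counting tool or read depth, so no counting interval is given. The 14577 symbols whose TPM over all 62 libraries averaged 0.5 or more were tested on log2(TPM + 1) with limma 3.58.1 in R 4.3.3 (lmFit, then eBayes with trend and robust prior), two-sided, with Benjamini-Hochberg adjustment over all tested genes.

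Named genes are the 12 largest rises and 12 largest falls of called genes averaging 10 TPM or more in the higher arm, with the same sign in both weeks, up to 2 called members per list and direction, up to 5 late-minus-early genes per direction at that level, and 19 genes always given. Every gene named outside this rule, members given as not called included, was chosen after its values were seen. Predicted (Gm), Rik and mitochondrially encoded genes were skipped. The comparison, the 46 gene lists (488 genes) and the rule were chosen with earlier results of these data known. Errors beside log2 differences are limma standard errors, and beside TPM standard deviations. Coordinates are from GENCODE M21 (GRCm38), where 45134 symbols were found. The fits were tested on simulated data. Some genes are not reported here. Alternatives were other pseudocounts, filters, scalings, covariates, library weights, a replicate block and leaving out each library.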

Additional observations from a re-analysis of the deposited data

Results flagged for a closer look

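For 34 of 424 gene and group combinations among the named genes (8.02%, over 30 genes) the highest or lowest library lay far from the rest of its group by Dixon's criterion, where chance flags about 1 in 20 groups. Replicate 3 of the 8-week CAC group did so 10 times. It was low, in TPM, for C4b at 247, Fkbp5 at 17.9, Hp at 582, Itih4 at 151, Lcn2 at 3.20 and Serpina3m at 7.48, and high for Lif at 0.916, Mki67 at 1.95, Mmd2 at 12.4 and Oxtr at 49.7. Replicate 1 of the 6-week CAC group stood apart 6 times, with Adipoq at 2570.3, Ccl8 at 82.4, Igfbp3 at 148, Il1r2 at 3.34, Mt1 at 3298 and Scd1 at 11346 TPM. In the 6-week NCAC group replicate 3 stood apart 7 times, with Azgp1 at 0.601, C7 at 7.01, Cyp51 at 10.4, Hp at 1119.7, Osmr at 11.9, Sprr1a at 0.825 and Upk3a at 0.164 TPM. In the 8-week NCAC group replicate 3 stood apart 4 times, with Azgp1 at 17.9, Cpt1b at 50.7, Map1lc3a at 76.9 and Pdk4 at 134 TPM. The remaining flags were C7 at 10.5 TPM in CAC replicate 5 of 6 weeks, Celsr2 at 2.87 TPM in NCAC replicate 4 of 6 weeks, Igfbp3 at 9.53 TPM in NCAC replicate 4 of 6 weeks, Lipe at 518 TPM in NCAC replicate 1 of 8 weeks, Ndufv1 at 323 TPM in CAC replicate 5 of 8 weeks, Nnat at 61.1 TPM in CAC replicate 2 of 8 weeks and S100a9 at 2.93 TPM in CAC replicate 7 of 8 weeks. 

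The CAC minus NCAC difference itself differed between the late and the early weeks for 97 genes in limma. The late minus early change was 4.49 for Fga, 4.12 for Itih4, 3.62 for Fkbp5, 3.56 for Serpina3k and 3.37 for Cxcl13. The Fga call was lost in 4 of 8 other settings, where its value went as low as 1.16. In the other direction it was -5.27 for Cdsn, -2.09 for Lyz1, -1.27 for Celsr2, -1.02 for Zfp703 and -0.79 for Irs1. The Zfp703 call was also lost in 4 of 8 other settings. Cdsn, Celsr2 and Zfp703 were not called in the late comparison or in the early one.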

How the results depend on the processing

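The late comparison called 2184 genes. It called 3511 after median-ratio rescaling, 5069 with library weights, 513 with the urothelial sum as a covariate and 61 without the libraries above 100 TPM in that sum, and 1507 to 2922 with single libraries left out. Of the 94 called named genes 81 held their call without each library, of which 12 held it in every setting run; the 13 that did not hold without each library were Adipoq, Angptl4, Cd209f, Cd36, Cfd, Dct, Igfbp3, Mmp9, Nampt, S100a9, Slc27a1, Slc40a1 and Xbp1. Lipe, at -0.12, reversed to 0.0348 with the covariate and 0.0382 without those libraries, in each case uncalled. The 97 late-minus-early calls became 57 with no filter on low values, 43 with the mitochondrially encoded genes left out, 51 with the covariate, 0 without the urothelial libraries and 41 (without CAC replicate 5 of 4 weeks) to 199 (without CAC replicate 3 of 8 weeks) in turn. CAC against mock, 1690 as deposited, gave 4056 without the mitochondrially encoded genes, 3586 after median-ratio rescaling, 8 (7 higher and 1 lower) without the urothelial libraries and 1274 to 2507 in turn. NCAC against mock gave 1 without the mitochondrially encoded genes, and 0 in turn. The early comparison gave 0 to 1 in turn, the 1 without CAC replicate 1 of 4 weeks, and the test between the weeks 0. The urothelial alternative keeps 4 CAC libraries, replicate 3 of 8 weeks among them. Other causes were not tested.

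Whether the replicate numbers pair the libraries was not settled. Correlations of the 10 same-numbered CAC and NCAC pairs of weeks 6 and 8 ran from -0.04 to 0.53, with 5 above 0.1. In 6 of the 10 pairs the best partner had the same number, so a factor shared by number cannot be set aside. With a replicate block the late comparison called 2472 genes, late minus early 60 and CAC against mock 513, of which 331 were higher and 182 lower, where the fit without the block had more lower than higher. Read depth is unknown, so counting error could not be separated from the spread between libraries.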
